A study of Mus musculus with 6 samples.

Results

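Serpins are serine protease inhibitors, a family named for its fold and sorted into clades by the letter after Serpin in the gene symbol. The deposited expression table of H22 tumours held 62 gene symbols that start with Serpin, of 21720 in all. Of these 62 rows, 54 had a count above 0 in at least 1 library and 36 passed the filter on low counts and were tested. H22 is a mouse hepatocellular carcinoma line, and its cells were injected under the skin of female wild-type BALB/c mice. The control group received 0.5% carboxymethyl cellulose sodium (CMC-Na), a thickener that serves as the vehicle, and the luteolin group received 200 mg/kg of luteolin, a plant flavonoid. Both were given by gavage in 0.2 mL each day for 21 days, from a tumour volume of about 50 mm3. RNA-seq of whole tumour tissue gave 3 libraries per group, named here control 1 to 3 and luteolin 1 to 3. The labels do not say that the libraries of a group came from separate animals, so p values measure the spread between these libraries.

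Most serpins carry an exposed loop that a protease cuts as if it were a substrate. The cut traps the enzyme in an inactive complex, so that 1 serpin molecule is spent for each protease molecule. Secreted serpins restrain coagulation, fibrinolysis, complement and leukocyte proteases, and the liver makes many of those found in plasma. Clade B serpins lack a classical signal peptide and mostly act inside cells, where some protect against granzymes and cathepsins. A few members inhibit no protease and carry hormones or assist protein folding instead. Rodents have many copies of some serpins that are single genes in humans, among them the Serpina3 genes of clade A and the Serpinb9 genes of clade B.

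Total counts were 69391357, 66256017 and 66655030 in the control libraries and 61081637, 80442954 and 63965501 in the luteolin libraries. Levels are given as CPM, the count scaled to a common library total after TMM normalisation. The label of the tissue was checked against markers. Afp, a fetal liver gene that hepatomas express, lay at 59.4, 66.7 and 43.4 CPM in the control libraries and at 32.7, 41.8 and 38.8 CPM in the luteolin libraries. Epcam, the most abundant of 5 hepatoma and fetal liver markers found, lay at 119, 127 and 135 CPM against 60.9, 102 and 46.6 CPM. The others of the 5 were low in the control libraries. Gpc3 lay at 1.19, 0.633 and 1.30 CPM there and Igf2 at 2.16, 0.2625 and 8.59 CPM, and Dlk1 had 20, 0 and 13 counts. Albumin, a defining gene of mature hepatocytes, lay at 3.06, 60.3 and 0.868 CPM in the control libraries.

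Luteolin 2 stood apart from the other libraries. Its Pearson correlation with the other luteolin libraries was 0.925 and 0.892 over tested genes, whereas luteolin 1 and 3 had a correlation of 0.965. The summed level of 12 keratinocyte markers was 9214 CPM in luteolin 2, 393 CPM in luteolin 1 and 21.2 CPM in luteolin 3, against 18.6, 14.4 and 16.5 CPM in the control libraries. Krt14, the most abundant of these markers and a keratin of the basal epidermis, had a count of 0 in all 3 control libraries and lay at 157, 2439 and 4.33 CPM in luteolin 1, 2 and 3. Counts of edgeR calls for the serpins together, their clades and the lists of proteases and inhibitors are therefore given with and without luteolin 2. Several single values that rest on it are given both ways too. In whole tissue, more cells of a type and more RNA per cell cannot be told apart.

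The comparison of the groups asked which serpins the tumours expressed at other levels after luteolin. Of the 36 serpins in the test, 12 were up-regulated and 4 down-regulated by the study's own criteria, which ask for an unadjusted p under 0.05 and a log2 fold change beyond 1 in either direction and are called the study's threshold here. The same rule called 11.3% of all 14963 genes tested as up-regulated and 1.52% as down-regulated. Of the 12, Serpinb6c passed the filter on low counts through the luteolin libraries alone. Fold changes are of luteolin over control and carry their standard error (SE). At a Benjamini-Hochberg adjusted p value under 0.05, 7 serpins were higher and 0 were lower, while 12 were higher and 5 lower at an unadjusted p value under 0.05 alone. The shares of all genes past the adjusted threshold were 1.34% higher and 0.187% lower. The 6 genes described here were Serping1 and Serpinf1, each a secreted protein with a clade of few mouse genes, Serpina3f, Serpina3g and Serpina3i of clade A, and Serpinb2 of clade B. In 11 of the 36 serpins every luteolin library lay above every control library and in 4 every one lay below, where the shares of all genes were 15.9% and 12.8%. The median log2 fold change was 0.98 over the serpins and -0.01 over all genes.

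Without luteolin 2, 10 serpins were up-regulated and 4 down-regulated at the study's threshold, with 7.52% and 1.84% of all genes, and the same 7 serpins were higher at an adjusted p value under 0.05, with 1.82% of all genes higher and 0.238% lower. The adjusted calls did not hold when other libraries were left out, with 0 of the 7 past the adjusted threshold without control 1, 2 or 3 or luteolin 1, and 4 of them without luteolin 3. All 7 stayed past the study's threshold in each of these fits. With each library left out in turn, log2 fold changes ran from 1.53 to 1.73 for Serping1 and 1.1 to 1.19 for Serpinf1. They ran from 1.81 to 1.99 for Serpina3f, 1.63 to 1.98 for Serpina3g, 2.2 to 2.9 for Serpina3i and 4.5 to 5.85 for Serpinb2. Over all genes, the number higher at an adjusted p value under 0.05 ranged from 0 to 276. The up-regulated serpins lost without luteolin 2 were Serpinb8 and Serpinh1. The balance of directions depended on the method. DESeq2 gave 17 up-regulated and 10 down-regulated serpins among 47 tested, with 11.5% and 1.61% of all genes. Voom of limma with sample quality weights gave 11 and 8 among 36, with 11.7% and 3.33% of all genes. Offsets for GC content and gene length gave 10 and 10 among 35, with 9.2% and 3.38% of all genes. At an adjusted p value under 0.05, DESeq2 gave 15 higher and 5 lower serpins, with 8.83% and 2.37% of all genes. Voom gave 10 and 7, with 12.6% and 8.76%, and the offsets gave 7 and 3, with 3.92% and 3.26%. Those offsets moved the median log2 fold change of all genes to -0.25 and that of the serpins to 0.81.

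**Figure D1:**
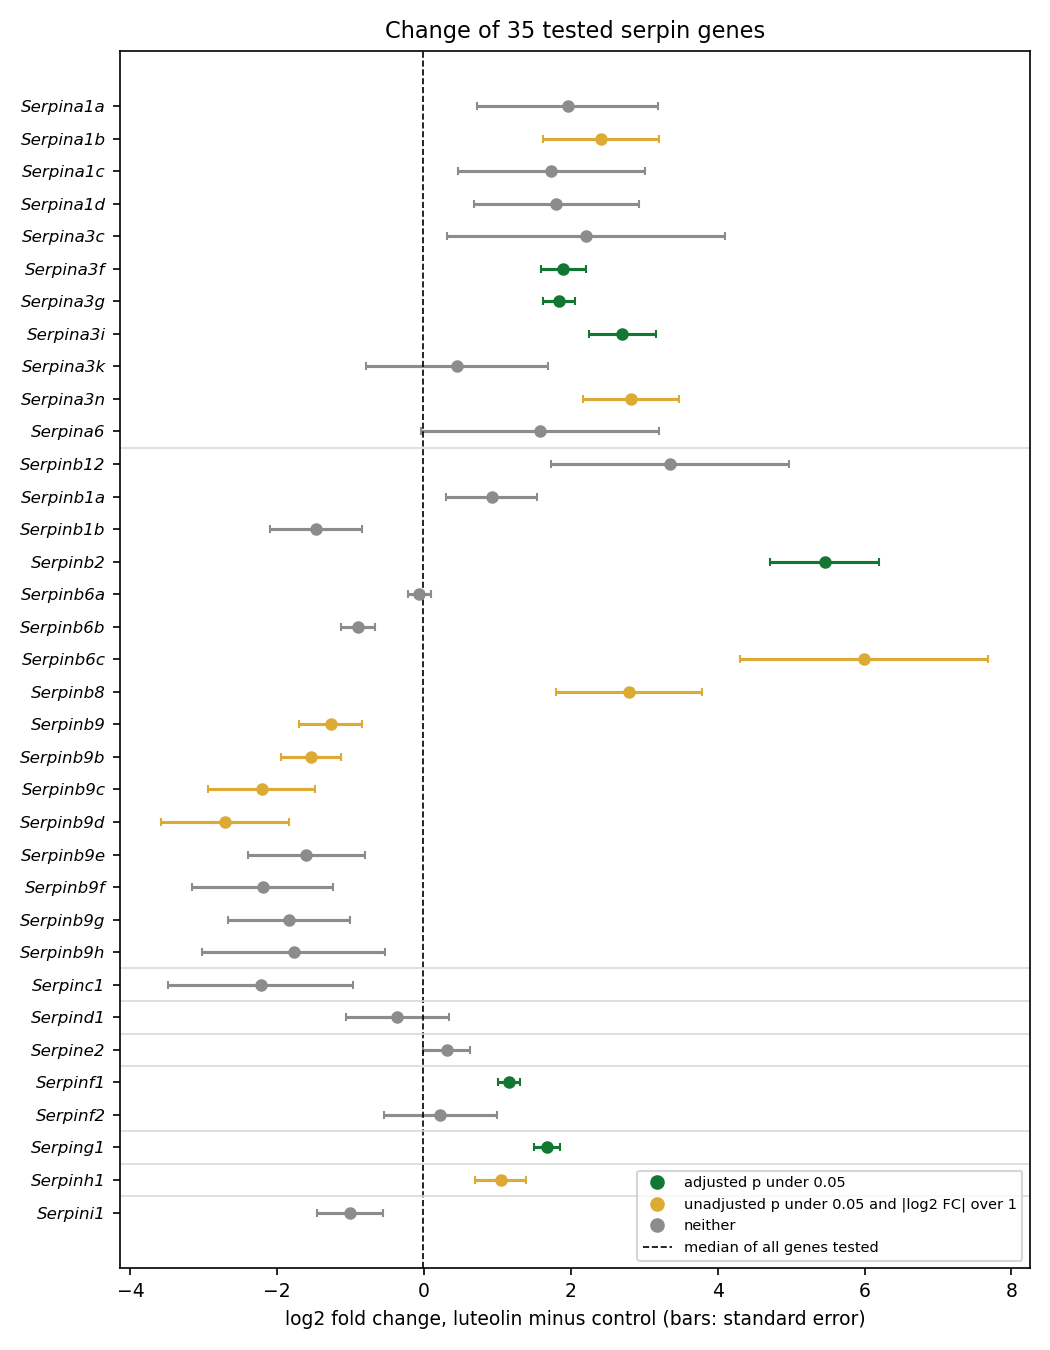
Log2 fold change of 35 of the 36 serpins tested (x axis, luteolin minus control, edgeR) by gene in clade order (y axis), with bars of 1 standard error and grey lines between clades. The 6 genes in green, with an adjusted p value under 0.05, all lie right of 1, the 9 in yellow pass the study's threshold alone, and all 8 Serpinb9 genes lie left of 0.

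The counts by clade are to be read against the shares of all genes, which were 11.3% up-regulated and 1.52% down-regulated at the study's threshold in edgeR and 11.5% and 1.61% in DESeq2. Clade A had 24 rows, of which 20 were detected and 11 tested, and all 11 had a positive log2 fold change, with a median of 1.89. Of those 11, 5 were up-regulated at the study's threshold, 3 of them at an adjusted p value under 0.05, and 0 were down-regulated. Clade B had 27 rows, of which 24 were detected and 16 tested. Its median was -1.37, with 3 genes up and 4 down by the study's criteria and 1 higher at an adjusted p value under 0.05. Of the 3 up, Serpinb6c passed the filter on low counts through the luteolin libraries alone. Without luteolin 2, clade A had 5 of 12 tested genes up and 0 down, with a median of 1.94. Clade B then had 2 up and 4 down of 16, with a median of -1.1, where the shares of all genes were 7.52% and 1.84%. In DESeq2, which tested 22 genes of clade B, the median turned to 0.41, with 8 genes up and 8 down, while that of clade A was 2.16. The difference between the clades was not tested. Clades C, D, E, F, G, H and I had 10 detected genes, of which 9 were tested and 4 were up-regulated. Of these 4, Serpinh1 was lost without luteolin 2. Summed over all serpins, the level was 677, 924 and 1041 CPM in control 1, 2 and 3 and 1510, 1650 and 1201 CPM in luteolin 1, 2 and 3, so that the groups did not overlap. In number, 35, 40 and 37 serpins had a count above 0 in the control libraries, and 50, 52 and 42 in the luteolin libraries. Over all genes the numbers were 15579, 15687 and 15858 in the control libraries and 16012, 16767 and 15870 in the luteolin libraries, also without overlap.

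**Figure D2:**
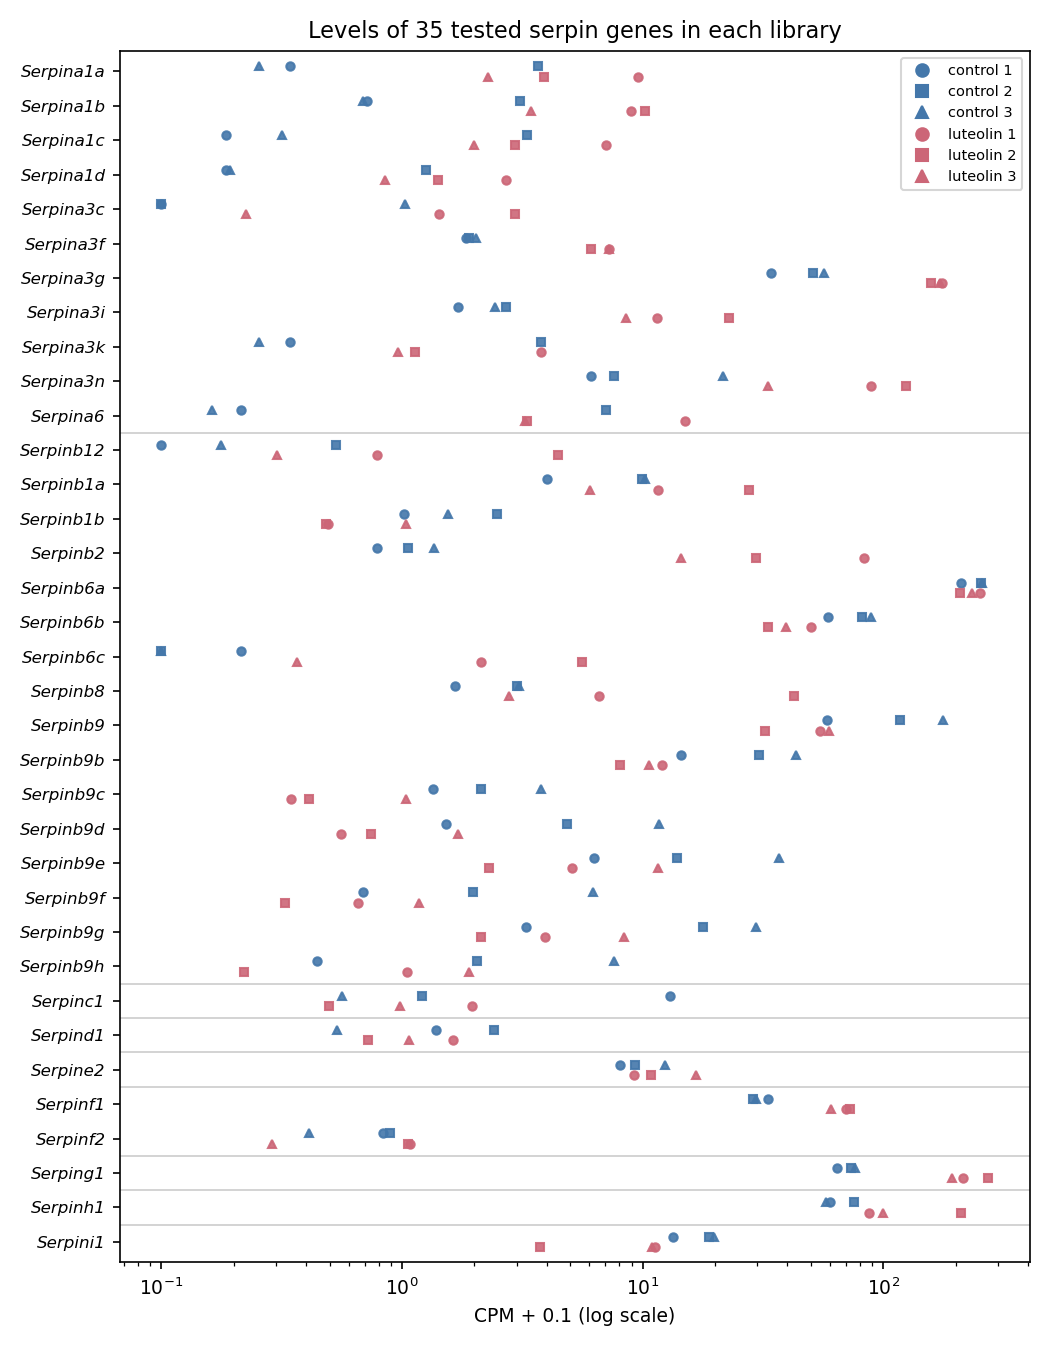
Level of 35 of the 36 serpins tested (y axis, in clade order) as CPM plus 0.1 on a log scale (x axis), with 1 symbol per library, blue for control and red for luteolin. The 6 serpins described here with an adjusted p value under 0.05 show separate blue and red points, and Serpinb6a, the most abundant serpin by CPM, shows overlapping ones.

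Among secreted serpins outside clade A, Serping1 and Serpinf1 were higher in every luteolin library. Serping1 encodes the C1 inhibitor, which blocks the complement proteases C1r and C1s and the contact system. It lay at 64.1, 73.1 and 76.3 CPM in control 1, 2 and 3 and at 214, 274 and 193 CPM in luteolin 1, 2 and 3. The lowest luteolin library was thus far above the highest control library. Its log2 fold change of 1.67 (SE 0.181, adjusted p = 0.0309, edgeR) was 1.53 without luteolin 2.

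Serpinf1 encodes pigment epithelium-derived factor, a serpin that does not inhibit proteases and is known for restraining blood vessel growth. It lay at 33.2, 28.6 and 29.6 CPM in the control libraries and at 69.9, 72.9 and 60.8 CPM in the luteolin libraries, with little spread within either group. The log2 fold change was 1.16 (SE 0.156, adjusted p = 0.0331, edgeR), and with offsets for GC content and gene length it was 0.81 with an adjusted p of 0.0406, under the fold change of the study's threshold.

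Serpinc1, Serpind1, Serpine2 and Serpinf2, which act on coagulation and fibrinolysis, passed neither threshold in edgeR. Serpinc1, which encodes antithrombin, the plasma inhibitor of thrombin and factor Xa, lay at 12.95, 1.11 and 0.465 CPM in control 1, 2 and 3 and at 1.85, 0.395 and 0.876 CPM in luteolin 1, 2 and 3. Control 1 alone was high, and the log2 fold change was -2.22 (SE 1.26, adjusted p = 0.379, edgeR), or 0.39 without control 1. DESeq2 placed Serpinc1 past the study's threshold, with a log2 fold change of -2.23 (adjusted p = 0.201). Serpind1, which encodes heparin cofactor II, another inhibitor of thrombin, lay at 1.29, 2.30 and 0.434 CPM against 1.54, 0.622 and 0.970 CPM, and the groups overlapped. Its log2 fold change was -0.36 (SE 0.705, adjusted p = 0.827, edgeR). Serpine2, a protease nexin that inhibits thrombin and plasminogen activators at cell surfaces, had a log2 fold change of 0.31 (SE 0.318), and Serpinf2, the plasmin inhibitor, had one of 0.22 (SE 0.770). Serpine3 had 7 counts in control 1 and 0 in the other libraries.

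Serpinh1 of clade H encodes a chaperone of the endoplasmic reticulum that binds procollagen and inhibits no protease. It lay at 59.9, 75.2 and 58.0 CPM in control 1, 2 and 3 and at 87.5, 210 and 99.7 CPM in luteolin 1, 2 and 3. The groups did not overlap, and luteolin 2 was more than double the others of its group. The log2 fold change was 1.04 (SE 0.346, adjusted p = 0.168, edgeR), and without luteolin 2 it was 0.56 and passed neither threshold. The call was also lost without control 1 and without control 3, under voom (0.39) and with offsets for GC content and gene length (0.58). Fibroblast markers were higher in the luteolin group in sum, although not in the order of Serpinh1 within the groups. The summed level of 10 of them was 1631, 1460 and 1576 CPM in the control libraries and 4228, 5254 and 2151 CPM in the luteolin libraries. Col3a1, a fibrillar collagen and the most abundant of them, lay at 562, 590 and 697 CPM against 1828, 1811 and 700 CPM, and all 10 markers had counts above 3 in 5 of the libraries and 9 did in control 1. Lum and Fap overlapped between the groups, and the log2 fold change of Fap was -0.36. Their part in the levels of Serpinh1, Serping1 and Serpinf1 was not tested. Serpini1 of clade I, which encodes neuroserpin, an inhibitor of tissue-type plasminogen activator, lay at 13.2, 18.9 and 19.7 CPM against 11.2, 3.65 and 10.9 CPM. Every luteolin library was below every control library, and the log2 fold change was -1.01 (SE 0.445, adjusted p = 0.261, edgeR). It passed neither threshold in edgeR. DESeq2 (-1.01) and the offsets for GC content and gene length (-1.14) placed Serpini1 past the study's threshold, and voom gave an adjusted p of 0.0413 (-0.79), while without luteolin 2 it was -0.63.

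**Figure D3:**
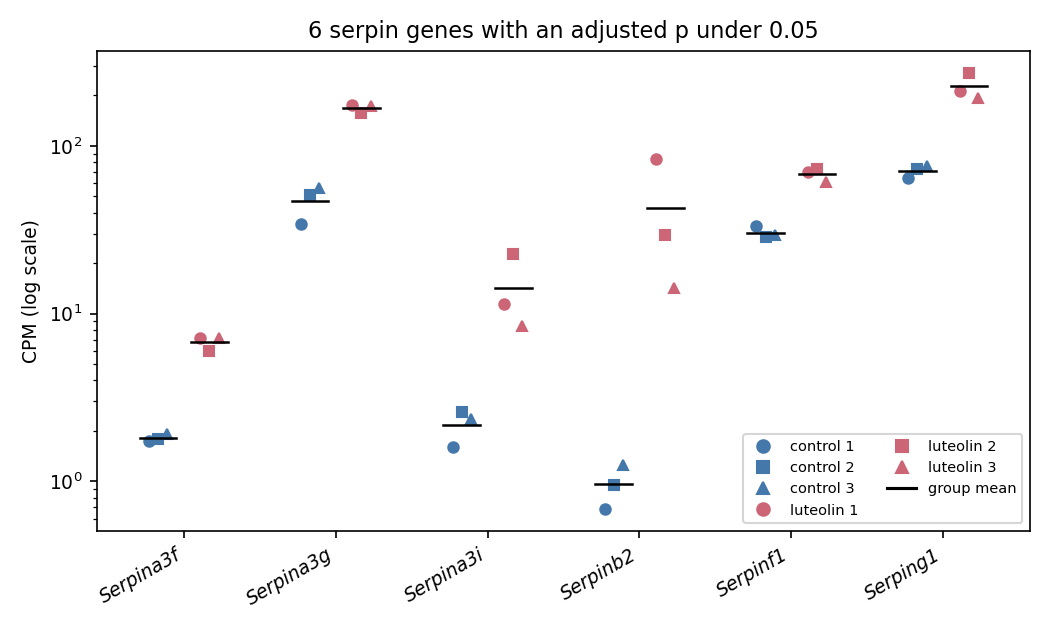
Level in each library, as CPM on a log scale (y axis), of 6 serpins with an adjusted p value under 0.05 (x axis), with blue symbols for control, red for luteolin and a black line at each group mean. No luteolin library of these genes lies as low as a control library, and Serpinb2 has the widest spread among luteolin libraries on the log scale, from 14.3 to 83.5 CPM.

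The Serpina3 genes are mouse copies that correspond to the single human gene of alpha-1-antichymotrypsin. The 3 genes of clade A with an adjusted p value under 0.05 were all among them. The stretches of sequence upstream of 4 of them are shown because those 3 genes each hold a match to a pattern there and the sister gene Serpina3n does not. Sequences come from RefSeq on the build GRCm38.p6, chromosome 12, plus strand, written 5′ to 3′, and capitals mark a match to TTCNNNGAA, a palindrome known as the GAS element that STAT proteins bind.
Serpina3f (chr12:104214398-104214455): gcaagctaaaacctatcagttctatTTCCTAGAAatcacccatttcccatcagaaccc
Serpina3g (chr12:104236089-104236146): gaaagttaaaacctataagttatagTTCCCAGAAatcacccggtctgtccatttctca
Serpina3i (chr12:104262995-104263052): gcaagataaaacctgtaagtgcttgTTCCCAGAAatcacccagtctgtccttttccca
Serpina3n (chr12:104406560-104406617): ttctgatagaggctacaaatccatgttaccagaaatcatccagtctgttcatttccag

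The match begins 121, 33 and 102 bases upstream of the annotated start of Serpina3f, Serpina3g and Serpina3i. The windows searched were the 250 bases upstream of each start in the RefSeq table. This pattern, which reads the same on both strands, occurred in 7.02% of all 32851 windows and in 10 of 62 windows of 53 serpin genes. The other serpins with a match were Serpinb9c, which was down-regulated at the study's threshold, Serpinb6a, Serpinb2, Serpina11 and Serpina1f, and Serpina3f has a further annotated start 210 bases from its match. Serpina3n has no match in its window. Its stretch shown differs from the 17 bases of Serpina3g that begin at the match in 3 positions, and those of Serpina3i and Serpina3f differ in 1 and 2. A match is a description of the letters and was not tested as a binding site.

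Serpina3g, known as an inhibitor of lysosomal cathepsins in leukocytes, was the most abundant gene of the clade. It lay at 34.2, 51.2 and 56.5 CPM in control 1, 2 and 3 and at 176, 158 and 173 CPM in luteolin 1, 2 and 3. The luteolin libraries were close to each other and all above the controls, with a log2 fold change of 1.84 (SE 0.214, adjusted p = 0.0331, edgeR). Serpina3f lay at 1.75, 1.79 and 1.92 CPM in the control libraries and at 7.14, 6.02 and 7.15 CPM in the luteolin libraries, with little spread in either group. Its log2 fold change was 1.89 (SE 0.308, adjusted p = 0.0437, edgeR), close to that of Serpina3g at a much lower level. Serpina3i lay at 1.60, 2.61 and 2.34 CPM against 11.4, 22.7 and 8.45 CPM, highest in luteolin 2. Its log2 fold change of 2.70 (SE 0.458, adjusted p = 0.0469, edgeR) was 2.20 without luteolin 2.

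Serpina3n, an acute-phase serpin that inhibits granzyme B and neutrophil proteases, lay at 6.01, 7.49 and 21.4 CPM in the control libraries and at 88.6, 124 and 33.1 CPM in the luteolin libraries. Control 3 and luteolin 3 were the nearest to each other, and the groups did not overlap. The log2 fold change of 2.82 (SE 0.658, adjusted p = 0.0877, edgeR) passed the study's threshold and not the adjusted one. Among the other Serpina3 genes, Serpina3c had a log2 fold change of 2.20 (SE 1.90) and Serpina3k one of 0.45 (SE 1.24), both with overlapping groups. Serpina3m had 32 counts or fewer in every control library and 47 or fewer in every luteolin library and was not tested, and Serpina3a was at 0 in every library. The Serpina3 genes are similar, with 3.4% of the 100-base stretches of Serpina3f, 3.49% of those of Serpina3g and 2.25% of those of Serpina3i also present in another gene, so a share of their reads could have been assigned to a sister gene.

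The summed levels of myeloid markers were higher in every luteolin library, although single markers were not all so. The sum of 8 neutrophil markers was 18.97, 19.06 and 22.38 CPM in control 1, 2 and 3 and 169, 182 and 81.3 CPM in luteolin 1, 2 and 3, with Csf3r, the receptor of granulocyte colony-stimulating factor, as the most abundant. Csf3r lay at 14.8, 11.97 and 16.2 CPM against 60.5, 111.5 and 31.8 CPM. Of the 7 tested, 4 lay above every control in every luteolin library, against 15.9% of all genes tested. The other 3, Retnlg, Mmp8 and Ly6g, overlapped between the groups, and the log2 fold change of Ly6g was -0.57 (SE 1.32). Camp, one of the 8, was not tested. It was at 0 in all control libraries and had 0, 7 and 100 counts in luteolin 1, 2 and 3. The summed level of 9 macrophage and monocyte markers, led by C1qa, was 929, 808 and 888 CPM against 1333, 1847 and 1552 CPM. Of the 9, 7 lay above every control in every luteolin library, against 15.9% of all genes tested. C1qa itself overlapped, with 256, 189.9 and 189.8 CPM against 241, 502 and 362 CPM. Their part in the Serpina3 levels was not tested.

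The remaining genes of clade A are mostly made by the liver. Serpina1b, a copy of the gene of alpha-1-antitrypsin, the plasma inhibitor of neutrophil elastase, lay at 0.615, 2.996 and 0.589 CPM in the control libraries and at 8.82, 10.2 and 3.35 CPM in the luteolin libraries. Control 2 was the highest control and lay just below luteolin 3. Serpina1b had a log2 fold change of 2.41 (SE 0.796, adjusted p = 0.166, edgeR), the only one of 4 tested Serpina1 genes past the study's threshold. That call was lost without control 1 (2.0) and without control 3 (2.04), while without control 2 the value was 3.59 and Serpina1a, Serpina1c and Serpina1d passed as well. The sister genes Serpina1a, Serpina1c and Serpina1d had log2 fold changes from 1.73 to 1.96 with standard errors over 1, and their groups overlapped. Of the 100-base stretches of Serpina1c, 58.5% were also present in another gene, and the shares were 40.8% for Serpina1a, 26.3% for Serpina1d and 13.8% for Serpina1b, so reads could have been split between them. Serpina6, which encodes the carrier of corticosteroids in plasma, lay at 0.115, 6.92 and 0.0620 CPM against 14.8, 3.21 and 3.13 CPM, and its groups overlapped too.

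Summed over 10 liver genes of clade A, the level was 1.39, 21.8 and 1.77 CPM in control 1, 2 and 3 and 47.9, 23.1 and 12.3 CPM in luteolin 1, 2 and 3. Albumin lay at 3.06, 60.3 and 0.868 CPM in the control libraries and at 133, 26.0 and 31.9 CPM in the luteolin libraries. Control 2 was high for both among the controls and luteolin 1 was the highest of all for both, but other ranks differed. Luteolin 2 was above luteolin 3 for the serpins and below it for albumin. Control 1 was below control 3 for the serpins and above it for albumin. The 12 hepatocyte markers together summed to 354, 369 and 386 CPM against 371, 519 and 357 CPM, of which transferrin (Trf) was the most abundant, with 347, 294 and 322 CPM against 122, 125 and 283 CPM. In control 1 and 3, 5 of the 12 had a count above 3, and in the other libraries all 12 did. Their part in the levels of the liver serpins was not tested.

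**Figure D4:**
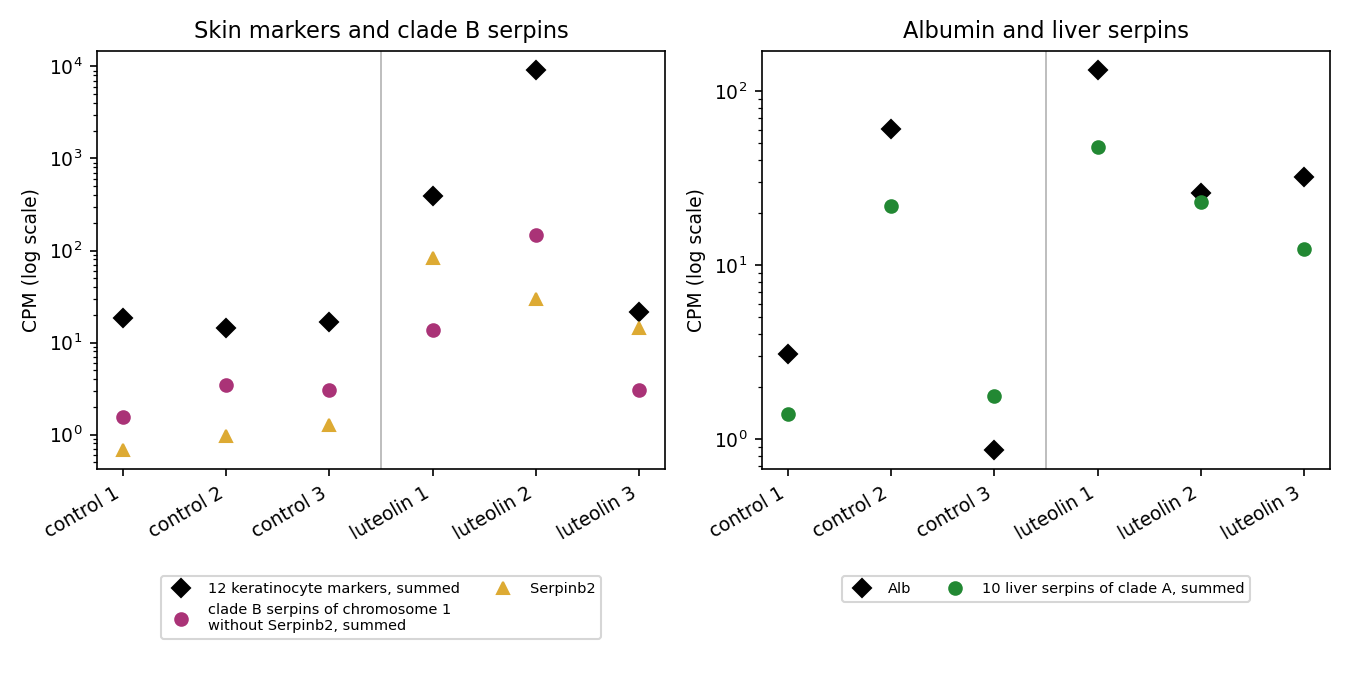
Levels in each library (x axis) as CPM on a log scale (y axis). Left, the sum of 12 keratinocyte markers, the sum of the clade B serpins of chromosome 1 without Serpinb2, and Serpinb2. Right, albumin (Alb) and the sum of 10 liver serpins of clade A. The keratinocyte sum peaks at 9214 CPM in luteolin 2, where Serpinb2 is at 29.5 CPM, below its 83.5 CPM in luteolin 1.

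Clade B genes sit at 2 loci of the mouse genome, with 11 rows on chromosome 1 and 16 on chromosome 13 in the annotation of GRCm38. The locus on chromosome 1 had 8 detected genes and 3 tested ones, with log2 fold changes from 2.79 to 5.45. Its summed level was 2.25, 4.45 and 4.31 CPM in the control libraries and 97.1, 176 and 17.3 CPM in the luteolin libraries. Serpinb2, an inhibitor of urokinase-type plasminogen activator that activated macrophages and keratinocytes make and that mostly stays inside the cell, lay at 0.687, 0.958 and 1.26 CPM in control 1, 2 and 3. In luteolin 1, 2 and 3 it lay at 83.5, 29.5 and 14.3 CPM, each far above every control. Its log2 fold change was 5.45 (SE 0.740, adjusted p = 0.0331, edgeR), the largest of the serpins past the adjusted threshold, and it ranged from 4.5 without luteolin 1 to 5.85 without luteolin 3. The keratinocyte, macrophage and neutrophil sums were each highest in luteolin 2. Among single markers, 12 of 12 keratinocyte, 8 of 9 macrophage and monocyte and 2 of 8 neutrophil ones were highest there. The neutrophil markers S100a8 and S100a9 were highest in luteolin 1, as Serpinb2 was. S100a9 lay at 79.97, 33.16 and 27.05 CPM in luteolin 1, 2 and 3, and S100a8 at 11.66, 4.51 and 7.18 CPM. The part of these cells in the Serpinb2 level was not tested.

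Serpinb8, a clade B serpin that can inhibit furin, lay at 1.56, 2.92 and 2.98 CPM against 6.51, 42.5 and 2.68 CPM. Luteolin 3 was within the range of the controls and luteolin 2 was far above all others. The log2 fold change of 2.79 (SE 0.996, adjusted p = 0.187, edgeR) was 0.91 without luteolin 2 and then passed neither threshold. The call was also lost without control 1, 2 or 3. Serpinb12 had a log2 fold change of 3.35 (SE 1.62, adjusted p = 0.304, edgeR) with overlapping groups, and one of 1.4 without luteolin 2. DESeq2 placed Serpinb12 past the study's threshold.

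A set of 8 serpins was at or under 3 counts in every control library and had a mean of at least 10 counts in the luteolin libraries. They were Serpina12, Serpina3b and Serpina3j of clade A and Serpinb3b, Serpinb6e, Serpinb7, Serpinb11 and Serpinb13 of clade B, and all 8 were at 0 in all 3 control libraries. For counting error alone, a gene listed at 0 could have had as many as 3 counts there. Serpina12 encodes vaspin, an inhibitor of kallikrein 7 found in fat and skin, and had 44, 1955 and 0 counts in luteolin 1, 2 and 3. Serpinb3b, a relative of the human squamous cell carcinoma antigens, had 56, 1396 and 0 counts, and Serpinb7, a serpin of the epidermis, had 40, 807 and 0. Serpina3j had 21, 1467 and 8 counts and Serpinb6e had 5, 1091 and 4. Serpina3b had 11, 749 and 0 counts, Serpinb11 had 10, 168 and 0 and Serpinb13, another epithelial serpin, had 0, 89 and 0.

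Luteolin 2 thus held between 92.5% and 100% of the luteolin level of each of these 8 genes. The mean level of the luteolin group was at least 178-fold higher than 3 counts per library allow for Serpina12, at least 133-fold for Serpina3j and at least 130-fold for Serpinb3b. Against a limit of 12 counts, for the case that 1 read pair is worth 4 counts, the bounds were 44.4, 33.2 and 32.5. Without luteolin 2, the bounds at 3 counts were 7.94 for Serpina12, 5.17 for Serpina3j and 10.1 for Serpinb3b. None of the 8 passed the filter of the edgeR test. Without that filter 7 of them, all but Serpinb13, were up-regulated at the study's threshold, against 1947 of all 17790 genes. DESeq2 called Serpinb3b, Serpinb7 and Serpinb11, the first and the last also at an adjusted p value under 0.05. Its shares of all genes were 11.5% and 8.83%. The 8 were chosen for low control counts and a luteolin mean of at least 10 counts, so these calls restate the choice and are no further evidence. The fits without the filter and in DESeq2 were not repeated without luteolin 2, and in edgeR none of the 8 passed the filter without it. Serpinb5, which encodes maspin, an epithelial serpin that inhibits no protease, showed the same distribution, with 0, 9 and 0 counts in the control libraries and 289, 5878 and 9 in the luteolin libraries. It did not pass the filter of the edgeR test, DESeq2 placed it past both thresholds, and it was named after its values had been seen. The 8 genes summed to 3.05, 92.4 and 0.188 CPM in luteolin 1, 2 and 3, the same order as the 12 keratinocyte markers, of which 8 (Krt14, Krt5, Krt1, Krt15, Dsg1a, Dsg3, Lor and Flg2) were also at or under 3 counts in all control libraries. The part of keratinocytes in these levels was not tested. Over all 18 serpins that were detected and not tested, 13 had their highest level in luteolin 2. Of all 54 serpins detected, tested or not, 24 did, and of all 17790 genes detected, 6264 did.

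On chromosome 13 the tested clade B genes had a median log2 fold change of -1.54. The 8 Serpinb9 genes were all detected and tested, and all 8 had a negative log2 fold change, with a median of -1.81. At the study's threshold 4 of them were down-regulated, against 1.52% of all genes, and these were all of the serpins down-regulated in edgeR. DESeq2 added Serpinb1b, Serpinc1 and Serpini1 outside the Serpinb9 genes, and the offsets for GC content and gene length added Serpinb1b, Serpinb6b and Serpini1. Serpinb9 encodes an inhibitor of granzyme B, which cytotoxic lymphocytes release to kill target cells. Its upstream stretch is shown beside that of Serpinb9b, with capitals for a match to the core of the interferon-stimulated response element (GAAA, any 2 bases, GAAA), which interferon regulatory factors bind, read here on the opposite strand (RefSeq, GRCm38.p6, chromosome 13, plus strand).
Serpinb9 (chr13:33004470-33004528): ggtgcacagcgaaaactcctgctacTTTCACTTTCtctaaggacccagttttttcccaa
Serpinb9b (chr13:33027339-33027397): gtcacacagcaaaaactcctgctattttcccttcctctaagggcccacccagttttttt

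The match in Serpinb9 begins 46 bases upstream of its start. These letters, searched on both strands, occurred in 2.98% of all windows and in the windows of 2 serpin genes, Serpinb9 and Serpinb6a. In Serpinb6a they overlap a match to TTCNNNGAA by 3 bases. Serpinb9b has no match in its window. Serpinb9d, Serpinb9e, Serpinb9f and Serpinb9g are near copies of each other, with identities of their upstream windows from 80.8% to 92.9%. A stretch of 41 bases from each is shown for their likeness, with capitals at the 38 positions that are identical in all 4.
Serpinb9d (chr13:33192914-33192954): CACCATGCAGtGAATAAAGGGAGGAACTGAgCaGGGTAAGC
Serpinb9e (chr13:33249567-33249607): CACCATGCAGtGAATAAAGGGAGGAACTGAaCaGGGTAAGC
Serpinb9f (chr13:33324021-33324061): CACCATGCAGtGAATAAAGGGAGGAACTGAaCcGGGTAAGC
Serpinb9g (chr13:33484745-33484785): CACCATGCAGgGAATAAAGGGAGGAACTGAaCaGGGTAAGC

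Serpinb9 itself lay at 58.4, 118 and 178 CPM in control 1, 2 and 3 and at 54.8, 32.1 and 59.2 CPM in luteolin 1, 2 and 3. Control 1 lay within the range of the luteolin group, so the groups overlapped at that library alone. The log2 fold change was -1.28 (SE 0.424, adjusted p = 0.168, edgeR). Serpinb9b, another inhibitor of granzymes, lay at 14.4, 30.3 and 43.4 CPM against 11.9, 7.92 and 10.5 CPM, and every luteolin library was below every control library. Serpinb9b had a log2 fold change of -1.54 (SE 0.410, adjusted p = 0.114, edgeR), the smallest p value of the 8. Serpinb9c lay at 1.25, 2.02 and 3.68 CPM against 0.245, 0.311 and 0.939 CPM, again without overlap, with a log2 fold change of -2.21 (SE 0.726, adjusted p = 0.164, edgeR). Serpinb9d lay at 1.42, 4.76 and 11.6 CPM against 0.457, 0.646 and 1.61 CPM. In Serpinb9d control 1 lay below luteolin 3, and the log2 fold change was -2.71 (SE 0.866, adjusted p = 0.158, edgeR).

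The other 4 had log2 fold changes of -1.61 for Serpinb9e, -2.20 for Serpinb9f, -1.84 for Serpinb9g and -1.78 for Serpinb9h, with standard errors from 0.795 to 1.24 and overlapping groups. For all 8 genes control 3 was the highest and control 1 the lowest of the control libraries, and luteolin 2 was the lowest of all libraries for 6 genes and luteolin 1 for 2. Summed over the 8 genes, the level was 85.8, 190 and 316 CPM in the control libraries and 77.8, 45.6 and 94.9 CPM in the luteolin libraries, so control 1 lay between luteolin 1 and luteolin 3. Without control 3 only Serpinb9b of the 4 passed the study's threshold, with log2 fold changes of -0.86 for Serpinb9, -1.71 for Serpinb9c and -1.77 for Serpinb9d. Serpinb9 also missed it without control 2 (-1.28), and Serpinb9c (-1.89) and Serpinb9d (-2.4) without luteolin 1. Without luteolin 2 the same 4 genes passed. Reads shared between copies limit single values, since 23.6% of the 100-base stretches of Serpinb9f, 17.9% of those of Serpinb9g, 10.1% of those of Serpinb9e and 7.21% of those of Serpinb9d were present in another gene, against 0 for Serpinb9, Serpinb9b and Serpinb9c.

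Libraries also differed by base composition. Over 14635 tested genes, which are not independent, the Spearman correlation between GC content and a library's deviation from the mean of all libraries was 0.42, -0.17 and -0.53 in control 1, 2 and 3 and -0.18, 0.44 and -0.36 in luteolin 1, 2 and 3. The Serpinb9 genes with a known GC content had between 41% and 44.2%, below the median of 49.9%. Within each group the library with the highest correlation had the lowest Serpinb9 sum, but over all 6 libraries the orders differed, and the part of base composition was not tested by itself. With offsets for GC content and gene length, 7 of the 7 Serpinb9 genes that could be fitted were down-regulated at the study's threshold, 2 of them, Serpinb9 and Serpinb9b, with an adjusted p value under 0.05. The shares of all genes in that fit were 3.38% and 3.26%. DESeq2 called 7 of 8 at the study's threshold and 4 at an adjusted p value under 0.05, with shares of all genes of 1.61% and 2.37%.

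**Figure D5:**
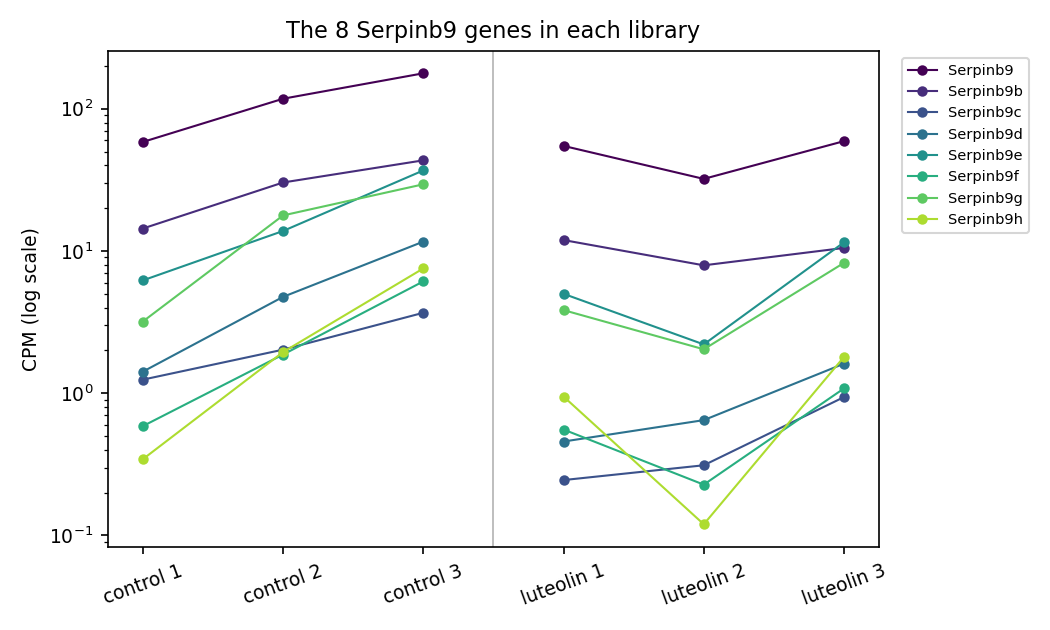
Level of the 8 Serpinb9 genes as CPM on a log scale (y axis) in each library (x axis), with 1 colour per gene. Lines join the values of a gene within a group and stand for no order of libraries. Control 3 is the highest and control 1 the lowest control for all 8 genes, and 6 genes are at their lowest in luteolin 2.

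Cytotoxic lymphocytes, the cells whose granzymes these serpins meet, had markers in the opposite direction. The summed level of 10 T and NK cell markers was 13.5, 17.9 and 17.04 CPM in control 1, 2 and 3 and 59.2, 107 and 62.4 CPM in luteolin 1, 2 and 3. Prf1, which encodes perforin, was the most abundant of them, with 1.23, 3.26 and 2.54 CPM against 9.98, 19.4 and 12.9 CPM, and all 10 had counts above 3 in every library. All 10 were up-regulated at the study's threshold, against 11.3% of all genes. Epcam and Afp were below every control in all luteolin libraries, with log2 fold changes of -0.86 (SE 0.287, adjusted p = 0.169, edgeR) and -0.58 (SE 0.208, adjusted p = 0.187, edgeR) that passed neither threshold. Of the other hepatoma and fetal liver markers, Gpc3, a proteoglycan of fetal liver, was up-regulated at the study's threshold, with 1.19, 0.633 and 1.30 CPM against 8.25, 9.34 and 3.13 CPM and a log2 fold change of 2.73 (SE 0.552, adjusted p = 0.0665, edgeR), Igf2 had overlapping groups and Dlk1 was not tested. The part of lymphocytes or tumour cells in the Serpinb9 levels was not tested.

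The Serpinb6 genes of the same locus diverged. Serpinb6a, a broad intracellular inhibitor that acts on cathepsin G, lay at 211, 256 and 258 CPM in the control libraries and at 252, 208 and 233 CPM in the luteolin libraries. The groups overlapped, and the log2 fold change was -0.06 (SE 0.152, adjusted p = 0.867, edgeR). Serpinb6b lay at 59.0, 81.6 and 88.6 CPM against 50.0, 33.2 and 39.5 CPM, with every luteolin library below every control library. Its log2 fold change of -0.90 (SE 0.228, adjusted p = 0.103, edgeR) did not reach the fold change of the study's threshold. Serpinb6b passed that threshold without control 1 and without luteolin 1, and it was lower at an adjusted p value under 0.05 in DESeq2, voom and the fit with offsets for GC content and gene length. Serpinb6c lay at 0.115, 0 and 0 CPM in the control libraries and at 2.03, 5.52 and 0.266 CPM in the luteolin libraries and passed the filter on low counts through the luteolin libraries alone. A fitted log2 fold change of 6.0 (SE 1.69, adjusted p = 0.125, edgeR) passed the study's threshold, but it depends on the prior count, since 2 control libraries were at 0. Since the luteolin libraries alone brought Serpinb6c past the filter, that call is no independent evidence of a rise. With values divided by 4 the call was lost. The fold change ranged from 4.82 without luteolin 2 to 10.41 without control 1. Serpinb1a, which restrains elastase, proteinase 3 and cathepsin G in neutrophils, had 3.89, 9.81 and 10.2 CPM against 11.5, 27.6 and 5.96 CPM. The groups overlapped, and its log2 fold change was 0.92 (SE 0.618, adjusted p = 0.466, edgeR). Serpinb1b had one of -1.47 (SE 0.627, adjusted p = 0.249, edgeR).

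Per kilobase of exon, the order of the serpins differed between the groups. The length used was that of all annotated exons of a gene together, which can exceed that of the transcripts present. It was 5409 bases for Serpinb6a and 2325 for Serping1, so their order depends on it. By CPM, Serpinb6a had means of 241.5 in the control and 231.1 in the luteolin group, and Serping1 had 71.15 and 226.8. Serpinb6a had the highest level in control 1 and control 2, with 38.9 and 47.3 CPM per kilobase, and Serpinb9 in control 3, with 50.8. Serping1 had the highest level in each luteolin library, with 92.0, 118 and 82.9 CPM per kilobase in luteolin 1, 2 and 3. Over the group means, Serping1 went from 30.6 to 97.6 CPM per kilobase and Serpina3g from 22.5 to 80.3. Serpinb9 went from 33.7 to 13.9 and Serpinb6b from 33.8 to 18.1, while Serpinb6a stood at 44.7 and 42.7.

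The proteases that serpins meet, and genes related to them, were examined with lists of genes by their known function, chosen with earlier results of these data known. In the list of complement and contact proteases, 7 of 11 tested genes were up-regulated at the study's threshold, against 11.3% of all genes, and 0 were down-regulated. The median log2 fold change was 1.81, against -0.01 over all genes, and without luteolin 2 the count was 6 of 11, against 7.52%. That list also held genes that encode no protease, Kng1 and the receptors Bdkrb1 and Bdkrb2, and both receptors were among the 7. C1ra and C1s1 encode the proteases that the C1 inhibitor blocks. C1ra lay at 28.2, 23.2 and 23.99 CPM in the control libraries and at 102, 102 and 60.6 CPM in the luteolin libraries, a log2 fold change of 1.81 (SE 0.241, adjusted p = 0.0331, edgeR). C1s1 lay at 17.3, 29.6 and 35.4 CPM against 157, 124 and 89.5 CPM, a log2 fold change of 2.17 (SE 0.326, adjusted p = 0.0393, edgeR). Both were above every control in every luteolin library, as was Serping1.

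In the plasminogen activation and coagulation list, 4 of 20 tested genes were up-regulated, against 11.3% of all genes, and 1 was down-regulated, and the median log2 fold change was 1.01. Plaur, the receptor of urokinase-type plasminogen activator, lay at 86.0, 95.5 and 63.0 CPM against 178, 175 and 165 CPM, a log2 fold change of 1.08 (SE 0.184, adjusted p = 0.0470, edgeR). Plaur fell short of the fold change of the study's threshold under voom (0.96), with the offsets (0.77) and without control 3 (0.92), and its adjusted p was under 0.05 in 5 of 15 alternatives. F3, which encodes tissue factor, the starter of coagulation, lay at 2.81, 3.80 and 3.72 CPM against 16.98, 10.9 and 7.20 CPM, a log2 fold change of 1.76 (SE 0.386, adjusted p = 0.0791, edgeR). The offsets for GC content and gene length left 1 of 20 up-regulated, against 9.2% of all genes, and without luteolin 2 the count was 6 of 21, against 7.52%.

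Among serine proteases of leukocytes, 13 of 18 tested genes were up-regulated, 0 were down-regulated and the median log2 fold change was 2.88, against 11.3% of all genes up-regulated. Without luteolin 2 the count was 12 of 18, against 7.52%. Of the 18 with all libraries, 1 passed the filter through the luteolin libraries alone. Gzmb, the granzyme that Serpinb9 inhibits, lay at 1.95, 2.46 and 3.60 CPM in control 1, 2 and 3 and at 18.7, 26.7 and 12.9 CPM in luteolin 1, 2 and 3. It rose by a log2 fold change of 2.86 (SE 0.391, adjusted p = 0.0331, edgeR), the direction opposite to that of the Serpinb9 genes. Tpsab1, a tryptase of mast cells, lay at 2.38, 5.11 and 2.23 CPM against 33.0, 26.4 and 14.8 CPM, a log2 fold change of 2.93 (SE 0.468, adjusted p = 0.0429, edgeR). Mast cell markers were at 8.89, 15.4 and 12.2 CPM in sum in the control libraries and at 91.8, 129 and 40.1 CPM in the luteolin libraries, with Hdc, the enzyme that makes histamine, as the most abundant of 7 (1.25, 1.65 and 1.94 CPM against 29.8, 33.9 and 11.5 CPM). Their part was not tested.

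Of cathepsins and epithelial proteases, 8 of 13 tested genes were up-regulated, against 11.3% of all genes, and 0 were down-regulated, and without luteolin 2 the count was 4 of 13, against 7.52%. Ctsk, a collagen-cleaving cathepsin, lay at 12.7, 16.2 and 17.6 CPM against 76.3, 74.5 and 54.3 CPM, a log2 fold change of 2.14 (SE 0.217, adjusted p = 0.0306, edgeR). Ctsh lay at 48.6, 57.8 and 53.1 CPM against 130, 216 and 104 CPM, a log2 fold change of 1.5 (SE 0.282, adjusted p = 0.0574, edgeR). Of inhibitors from other families, 11 of 21 tested genes were up-regulated, against 11.3% of all genes, and 0 were down-regulated, 1 of the 21 having passed the filter through the luteolin libraries alone, with a median log2 fold change of 1.36, and 7 of 23 were up-regulated without luteolin 2, against 7.52%. Timp3, a matrix-bound inhibitor of metalloproteinases, lay at 17.6, 27.1 and 22.6 CPM against 165, 90.1 and 125 CPM, a log2 fold change of 2.5 (SE 0.280, adjusted p = 0.0331, edgeR). Tfpi, the inhibitor of the tissue factor pathway, lay at 5.41, 4.36 and 5.12 CPM against 12.2, 9.97 and 16.2 CPM, a log2 fold change of 1.37 (SE 0.285, adjusted p = 0.0719, edgeR).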

How the data were processed

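Whole-tumour RNA-seq libraries of the control and luteolin groups were used, 3 each, and 0 columns were left out. As deposited, the authors' table holds estimated counts, that is, whole numbers for each gene symbol made from the sequenced reads, with no scaling between libraries. Multiples of 4 made up 44.8% of values between 1 and 40, against 25% for an even spread, so 1 count need not be 1 read pair. The submitters' notes name bcl2fastq 2.0, HISAT2, StringTie, DESeq2 and the builds mm39 and rn6, without their roles.

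Counts were compared in R 4.3.3 with edgeR 4.0.16 (TMM normalisation, filterByExpr, two-sided quasi-likelihood test, no covariates), with Benjamini-Hochberg adjustment over 14963 genes. CPM used the TMM-scaled total, and standard errors were derived from the fold change and the F statistic. The study's methods name DESeq2, in an older version than the one used here, and mention no covariates. The alternatives here were DESeq2 1.42.0, voom of limma 3.58.1, other normalisations and filters, values divided by 4 and a replicate block. GC content and length offsets (GENCODE M21, GRCm38) and each library left out in turn were the others. Scripts were tested on simulated data.

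Of the 62 serpins, 61 were found in GENCODE M21, Serpinb9h being the exception, and 53 in the RefSeq table of upstream windows. Serpins, lists and markers were chosen with earlier results of these data known. Values in every library are given for serpins past either threshold, for the most abundant gene and the smallest p value of each clade, for serpins at or under 3 counts in all controls with a luteolin mean of at least 10 counts, for the 2 partner genes with the smallest p value in each list and for the most abundant gene of each marker list. Other genes with values were chosen after those had been seen. Ctsv and H19 were not found in the table. For 1 serpin gene, counted in the totals, no values are reported here.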

Additional observations from a re-analysis of the deposited data

How the results depend on the processing

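Of 449 values of named genes under 15 alternatives, 418 kept their direction and their side of the study's threshold. The exceptions that turned direction were Serpinc1 with 0.13 under voom and 0.39 without control 1, Serpind1 with 0.28 without control 2 and Serpinb6a with 0.03 without luteolin 2, all log2 fold changes of genes that passed neither threshold in edgeR with all libraries. With each library left out in turn, these genes ranged from -2.93 to 0.39, from -0.79 to 0.28 and from -0.17 to 0.03. DESeq2 gave 10 down-regulated serpins, 15 higher and 5 lower at an adjusted p under 0.05, a serpin median of 1.66, and 1543 higher and 415 lower among all genes. Voom gave 8 down-regulated serpins, 7 lower at an adjusted p under 0.05, a median of 0.4, 498 down-regulated genes in all and 1886 higher and 1311 lower at an adjusted p under 0.05. Without a filter on low counts 21 serpins were up-regulated (median 1.71), and with a minimum mean of 10 counts 20 were (median 1.7), with 115 and 18 of all genes past the adjusted threshold. Values divided by 4 gave 327 and 46 genes. With GC content and length offsets, 10 serpins were down-regulated and 3 were lower at an adjusted p under 0.05, against 494 down-regulated genes and 573 higher and 477 lower. With each library left out in turn, up-regulated serpins ranged from 10 to 19, down-regulated ones from 1 to 9, serpins higher at an adjusted p under 0.05 from 0 to 7 and lower from 0 to 0, and the serpin median from 0.74 to 1.73. Over all genes these ranges were 1139 to 2104, 140 to 305, 0 to 276 and 0 to 36. The count of serpins at an adjusted p under 0.05 was 0 in edgeR without control 1, 2 or 3 or luteolin 1 (higher and lower at an unadjusted p under 0.05, 11 and 9, 19 and 4, 12 and 2, and 12 and 3), 7 without luteolin 2 and 4 without luteolin 3. The deviations of same-numbered libraries from their group means had correlations of -0.196, -0.092 and 0.063. With 3 libraries per group, these values cannot decide whether the replicate numbers pair the samples. With the replicate number as a block, 0 serpins had an adjusted p under 0.05 (13 higher and 6 lower at an unadjusted p under 0.05), with 34 and 1 of all genes. The causes were not tested. Where 1 read pair is worth several counts, genes near 3 counts are at the limit of detection.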

Other observations

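The letters TGANTCA, the motif of AP-1 factors such as Fos and Jun, were found in the 250-base upstream windows of 10 of 53 serpin genes. These were Serpinb2, Serpinb5, Serpinb7, Serpinb8, Serpinb11 and Serpinb12 of the chromosome 1 locus and Serpina1a, Serpina1b, Serpina1c and Serpina1d of clade A. Over all windows the share was 6.75%, and 11 of 62 serpin windows held the letters on either strand. The match is a description of sequence and says nothing on binding in these tumours.

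Klk7 and Cst6, skin genes outside the serpin family, were also highest in luteolin 2. Klk7, a kallikrein that Serpina12 inhibits, had 774, 12868 and 0 counts in luteolin 1, 2 and 3 and 5, 0 and 4 in control 1, 2 and 3. Cst6, a cystatin of the epidermis, had 144, 12549 and 28 counts against 25, 40 and 20. Slpi, an inhibitor of neutrophil elastase made by epithelium and by leukocytes, lay at 166, 544 and 110 CPM in the luteolin libraries and at 16.3, 46.7 and 26.5 CPM in the control libraries, so that it was higher in every luteolin library. These genes were chosen after their values had been seen.

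The summed level of 8 endothelial markers was 116, 111 and 128 CPM in control 1, 2 and 3 and 197, 320 and 122 CPM in luteolin 1, 2 and 3, with Pecam1 as the most abundant (38.8, 43.1 and 51.2 CPM against 85.04, 130.9 and 59.3 CPM). Adipocyte markers summed to 16.2, 13.9 and 70.2 CPM against 52.3, 355 and 16.8 CPM, led by Fabp4 (16.2, 13.7 and 48.2 CPM against 35.7, 170.9 and 14.7 CPM), and skeletal muscle markers to 461, 707 and 1059 CPM against 367, 1050 and 231 CPM, led by Myh4 (109.7, 356 and 453 CPM against 51.1, 264 and 59.3 CPM).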
